A study of Homo sapiens with 6 samples.

Results

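The genes described here encode the proteasome, the barrel-shaped protease that degrades ubiquitin-tagged proteins, with its regulators and assembly factors. They were measured in U2OS, an established human osteosarcoma cell line, transfected with a synthetic mimic of the microRNA miR-542-3p on 3 arrays and with a negative control mimic on the other 3. Members were chosen by symbol: PSMA to PSMG followed by a number, plus POMP and ADRM1. Of 50 such genes, 46 had a probe, among 20046 genes with a probe in all, and 43 were detected and tested, among 10734. PSMA8 and PSMB11, known as testis and thymus subunits, and PSMF1, an inhibitor, had probes that were not detected on 3 arrays, and PSMA7, PSMC5, PSMD7 and PSMD13 were not analysed here. RNA was taken at 48 h. Both groups were transfected cells of the same line, and no untransfected cells were used here. The labels name no separate cultures for the 3 samples of a group, so a p-value here reflects sample-to-sample spread that could be technical. In RNA from bulk cells, a change in the share of cells and a change in RNA per cell cannot be told apart.

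The 20S core is a stack of 4 rings: outer rings of alpha subunits form the gate, and inner rings of beta subunits hold the catalytic sites of PSMB5, PSMB6 and PSMB7. In cells exposed to interferon these catalytic subunits can be replaced by PSMB8, PSMB9 and PSMB10, which makes the immunoproteasome. The 19S cap, with a ring of ATPases (PSMC genes) and a lid and base of non-ATPase subunits (PSMD genes and ADRM1), receives ubiquitin chains, removes them and unfolds the substrate. PSME1 and PSME2 together, PSME3 or PSME4 can open the core without the 19S cap. Dedicated chaperones put the complex together. When proteasome activity is low, the transcription factor NFE2L1 raises many subunit genes at once, through antioxidant response elements (AREs) in their promoters.

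Median signal was 132.2 to 151.4 on the 6 arrays, and 17848 to 18652 of 47323 probes were detected at p under 0.05. Levels are on the log2 scale after background correction and quantile normalization, and each belongs to its own probe, so levels of different genes were not compared. A change is the mimic mean less the control mean on that scale, given with its standard error (SE) or 95% interval from limma. A gene was called at a Benjamini-Hochberg adjusted p under 0.05 over all rows tested. BIRC5 (survivin) fell by 3.28 ± 0.19 (SE; limma adjusted p = 7.7e-05) and CDKN1A (p21) rose by 1.03 ± 0.16 (limma adjusted p = 0.00293). Of the mesenchymal markers listed, 7 of 7 were measured. SPARC and THY1 were called lower and RUNX2 higher, against 13.7% lower and 12.7% higher of all genes tested. CD44, FN1, COL1A1 and VIM were not called. The log2 summed level was 14.64 to 14.84 in controls and 14.65 to 14.69 with the mimic. VIM alone read 14.159 to 14.419 in controls and 14.155 to 14.241 with the mimic, so the sum says little about the other markers. For leukocytes 1 of 6 markers was measured (CD68, log2 level 6.90 to 7.59 in controls and 6.95 to 7.77 with the mimic), and PTPRC, CD3E, CD14 and LYZ were not detected. Of endothelial markers 2 of 5 were measured, and PECAM1, CDH5 and KDR were not detected. TEK, detected on 1 control and 2 mimic arrays, was not called. VWF was called lower, but only the control arrays detected it, so it passed the filter through the group where it was high. Their log2 summed level was 6.17 to 7.20 in controls and 6.03 to 6.41 with the mimic, and part of it was undetected signal. Epithelial markers were measured for 3 of 6 (EPCAM lower, KRT8 and KRT18 not called), at a log2 summed level of 10.37 to 10.59 in controls and 10.05 to 10.39 with the mimic, and CDH1, KRT19 and KRT5 were not detected. The part of these markers in the results was not tested.

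Of the 43 proteasome genes, the mimic arrays were lower for 7 and higher for none by limma's test, and 36 were not called. In all, 26.4% of genes tested were called in either direction. The 7 were PSMA2, PSMB4, PSMB6 and PSMB9 of the core, the activator PSME3, and the 19S assembly chaperones PSMD5 and PSMD9. The share that fell was 16.3%, against 13.7% of all genes tested, so the number of falls was near the background. PSMB9 was detected in the control group alone and so passed the filter only through the group where it was high; among the 42 members detected in both groups, 6 (14.3%) were called lower. The share that rose was 0%, against 12.7% of all genes. At an unadjusted limma p under 0.05, 9 members were lower and 3 higher, against 39.9% of all genes in either direction. The median change was -0.06, against 0.02 for all genes, and 25 members changed below 0 (58.1%, against 48.2% of all genes). Arrays of the groups did not overlap for 17 members, against 45.0% of all genes. The mimic arrays lay below all control arrays for 11 (25.6%, against 22.1% of all genes) and above them for 6 (14%, against 23.0%). The number of falls was 4 without control replicate 1, control replicate 2, mimic replicate 1 or mimic replicate 3, where 9.6% to 11.2% of all genes fell. Without mimic replicate 2, 1 member rose, against 12.8% of all genes. With no background correction, with the deposited log2 values, with array weights, and with limma's trend and robust options, PSMC4, PSMD10 and PSME2 were called higher. In those settings 16.1% to 17.6% of all genes were called higher.

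**Figure D1:**
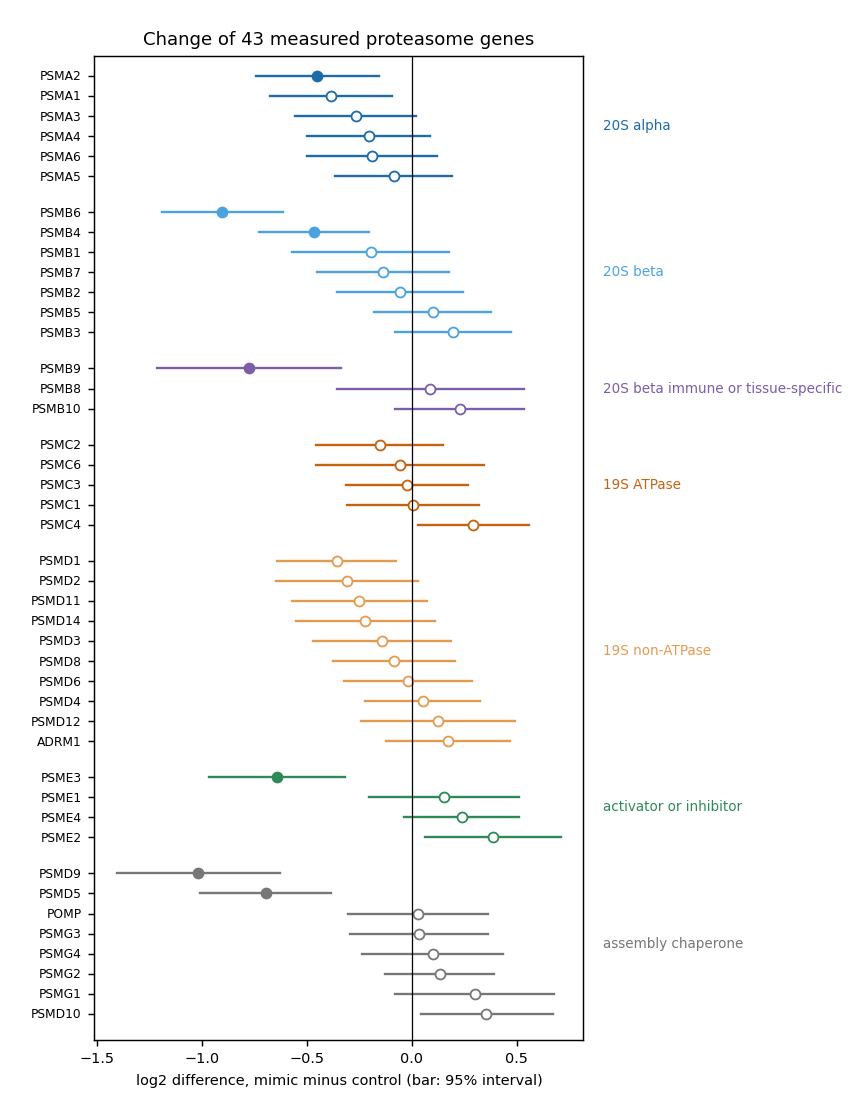
Log2 difference between mimic and control (x axis) for the 43 measured genes, by role. Points are limma estimates, bars 95% intervals, and filled points are the 7 genes called at an adjusted p under 0.05, which all lie left of 0.

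Promoter sequences are shown for the genes that were called lower and had an entry in the RefSeq promoter table, since AREs in such windows are the known route of joint proteasome gene control. Each covers 250 bases before to 50 after the start of the gene, 5′ to 3′ on the gene's strand. Capitals mark matches, on either strand, to the ARE cores TGACNNNGC and TGAGNNNGC and to the CCAAT box CCAAT.
PSMD9 promoter (GRCh38.p14, chr12:121888540-121888839, plus strand): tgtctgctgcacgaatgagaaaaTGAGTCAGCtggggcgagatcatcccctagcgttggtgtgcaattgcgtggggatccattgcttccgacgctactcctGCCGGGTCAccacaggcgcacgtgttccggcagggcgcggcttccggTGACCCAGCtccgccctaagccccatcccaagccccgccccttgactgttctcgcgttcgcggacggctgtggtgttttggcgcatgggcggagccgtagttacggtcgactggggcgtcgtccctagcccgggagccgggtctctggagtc
PSMD5 promoter (GRCh38.p14, chr9:120842873-120843172, minus strand): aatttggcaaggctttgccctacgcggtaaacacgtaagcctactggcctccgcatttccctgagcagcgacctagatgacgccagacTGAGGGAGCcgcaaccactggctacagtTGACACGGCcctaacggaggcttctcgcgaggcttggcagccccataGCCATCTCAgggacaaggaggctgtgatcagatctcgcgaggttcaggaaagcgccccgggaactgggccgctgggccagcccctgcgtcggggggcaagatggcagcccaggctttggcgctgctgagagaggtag
PSMB9 promoter (GRCh38.p14, chr6:32853942-32854241, plus strand): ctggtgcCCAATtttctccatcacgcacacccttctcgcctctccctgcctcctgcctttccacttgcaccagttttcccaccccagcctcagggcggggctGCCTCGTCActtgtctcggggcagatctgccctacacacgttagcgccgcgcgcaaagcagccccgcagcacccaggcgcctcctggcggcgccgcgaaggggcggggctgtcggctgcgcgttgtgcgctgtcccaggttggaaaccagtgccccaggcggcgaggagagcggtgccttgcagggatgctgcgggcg
PSMA2 promoter (GRCh38.p14, chr7:42932125-42932424, minus strand): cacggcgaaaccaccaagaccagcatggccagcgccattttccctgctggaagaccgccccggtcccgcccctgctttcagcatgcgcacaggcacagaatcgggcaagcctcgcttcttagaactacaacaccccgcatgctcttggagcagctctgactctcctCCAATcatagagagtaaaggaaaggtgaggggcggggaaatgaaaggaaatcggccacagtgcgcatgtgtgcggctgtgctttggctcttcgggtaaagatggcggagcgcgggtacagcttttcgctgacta
PSME3 promoter (GRCh38.p14, chr17:42833147-42833446, plus strand): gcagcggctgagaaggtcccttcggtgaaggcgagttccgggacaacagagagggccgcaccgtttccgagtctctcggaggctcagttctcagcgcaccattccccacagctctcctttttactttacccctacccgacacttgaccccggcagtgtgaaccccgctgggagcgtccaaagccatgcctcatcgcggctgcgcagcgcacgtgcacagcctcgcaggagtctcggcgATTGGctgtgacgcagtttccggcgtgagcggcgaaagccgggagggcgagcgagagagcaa
PSMB4 promoter (GRCh38.p14, chr1:151399323-151399622, plus strand): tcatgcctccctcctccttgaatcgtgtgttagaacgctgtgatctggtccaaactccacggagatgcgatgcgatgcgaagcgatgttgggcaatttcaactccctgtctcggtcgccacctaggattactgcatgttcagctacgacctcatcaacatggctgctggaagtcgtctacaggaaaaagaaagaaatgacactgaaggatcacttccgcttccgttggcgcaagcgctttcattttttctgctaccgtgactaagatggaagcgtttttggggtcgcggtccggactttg

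PSMD9 and PSMD5 each held 3 ARE cores, PSMB9 held 1, and PSMA2, PSME3 and PSMB4 held none in these windows. PSMB9, PSMA2 and PSME3 each held 1 CCAAT box, and no marked matches overlapped in these windows. One PSMD9 match also spells TGAGTCA, the letters of an AP-1 element. Among the 38 measured members with an entry, 20 (52.6%) held at least 1 ARE core, against 29.1% of all 35116 windows of the same length in the table. Of the 6 shown, 3 did. CCAAT was found in 17 of 38 member windows (44.7%), against 34.6% of all windows. For members with several entries the first was used. The shares over all windows counted every entry and were not limited to genes tested here, so member and table shares are not like for like. A match is a description of letters and not of binding.

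The core subunits that fell were led by PSMB6, the beta subunit with caspase-like activity. Its level was 12.71, 12.88 and 12.80 on control arrays 1 to 3 and 11.88, 12.04 and 11.78 on mimic arrays 1 to 3. All 3 mimic arrays lay below all 3 control arrays. PSMB6 fell 1.87-fold, by 0.90 ± 0.13 (SE; limma adjusted p = 0.00193). Of all genes tested, 5.68% changed as far down or further. In unnormalized signal the control arrays read 6903.5, 7463.6 and 7555.0 and the mimic arrays 4010.4, 4220.5 and 3468.1. The call of PSMB6 held under each of the 20 alternatives run, with sizes of 0.84 to 0.97.

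PSMB4, a beta subunit without a catalytic site, read 12.08, 12.18 and 12.10 on the control arrays and 11.69, 11.70 and 11.59 on the mimic arrays. The groups did not overlap and arrays within each group lay close together. PSMB4 fell 1.38-fold, by 0.47 ± 0.11 (SE; limma adjusted p = 0.0214). Leaving out any array but mimic replicate 2 ended the call (limma adjusted p up to 0.0625), with changes of -0.49 to -0.44.

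The other constitutive beta subunits did not pass. PSMB7, with trypsin-like activity, changed by -0.14 (95% interval -0.45 to 0.18), and PSMB5, with chymotrypsin-like activity and the main target of proteasome inhibitor drugs, by 0.10 (-0.18 to 0.38). Whether PSMB6 changed differently from PSMB5 or PSMB7 was not tested. PSMB3 read 13.22, 13.17 and 13.05 in controls and 13.37, 13.25 and 13.42 with the mimic, a difference of 0.20 (-0.08 to 0.47; limma adjusted p = 0.276). All its mimic arrays lay above the control arrays. PSMB1 read 13.50, 13.53 and 13.33 in controls and 13.57, 13.17 and 13.04 with the mimic. Mimic array 1 was the highest of the 6 and mimic array 3 the lowest, and the difference was -0.20 (-0.57 to 0.18; limma adjusted p = 0.435). PSMB2 changed by -0.06 (-0.36 to 0.24).

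Of the alpha subunits, which form the gate of the core, 1 of 6 measured was called lower, against 13.7% of all genes tested. The change was below 0 for 6 of 6, with a median of -0.24, against 48.2% of all genes below 0. PSMA2, the one called, read 8.40, 8.45 and 8.19 in controls and 7.81, 7.90 and 7.98 with the mimic. PSMA2 fell by 0.45 ± 0.13 (SE; limma adjusted p = 0.0368). The call ended without any 1 array other than control replicate 3 (limma adjusted p up to 0.117), with no filter on dim probes (0.0654) and with a replicate block (limma adjusted p = 0.0656).

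PSMA1 read 12.49, 12.74 and 12.46 in controls and 12.18, 12.19 and 12.18 with the mimic. Its groups did not overlap, and the difference of -0.39 (95% interval -0.67 to -0.10) missed the threshold (limma adjusted p = 0.060). It was called lower under 9 of the 20 alternatives, among them no background correction (-0.38, limma adjusted p = 0.00875). A dimmer PSMA1 probe gave -0.50 (adjusted p over probes = 0.0543). PSMA3 read 11.73, 11.79 and 11.54 in controls and 11.35, 11.50 and 11.40 with the mimic, all mimic arrays below the controls, with a difference of -0.27 (-0.56 to 0.02; limma adjusted p = 0.166). PSMA4, PSMA6 and PSMA5 changed by -0.21, -0.19 and -0.09, with overlapping arrays.

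The median of the alpha genes differed between controls too. Against the mean of the other controls it was -0.22 on control array 3, 0.07 on control array 1 and 0.13 on control array 2. On the mimic arrays, set against the mean of all controls, it was -0.26, -0.18 and -0.29. The baseline of the mimic arrays includes control array 3, while that of control array 3 does not. The value of control array 3 can therefore not be ranked among those of the mimic arrays. In the fit without control array 3, PSMA2 changed by -0.53, PSMA1 by -0.44 and PSMA3 by -0.34. With all arrays the changes were -0.45, -0.39 and -0.27. Beyond that refit, the part of control array 3 in the result was not tested.

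**Figure D2:**
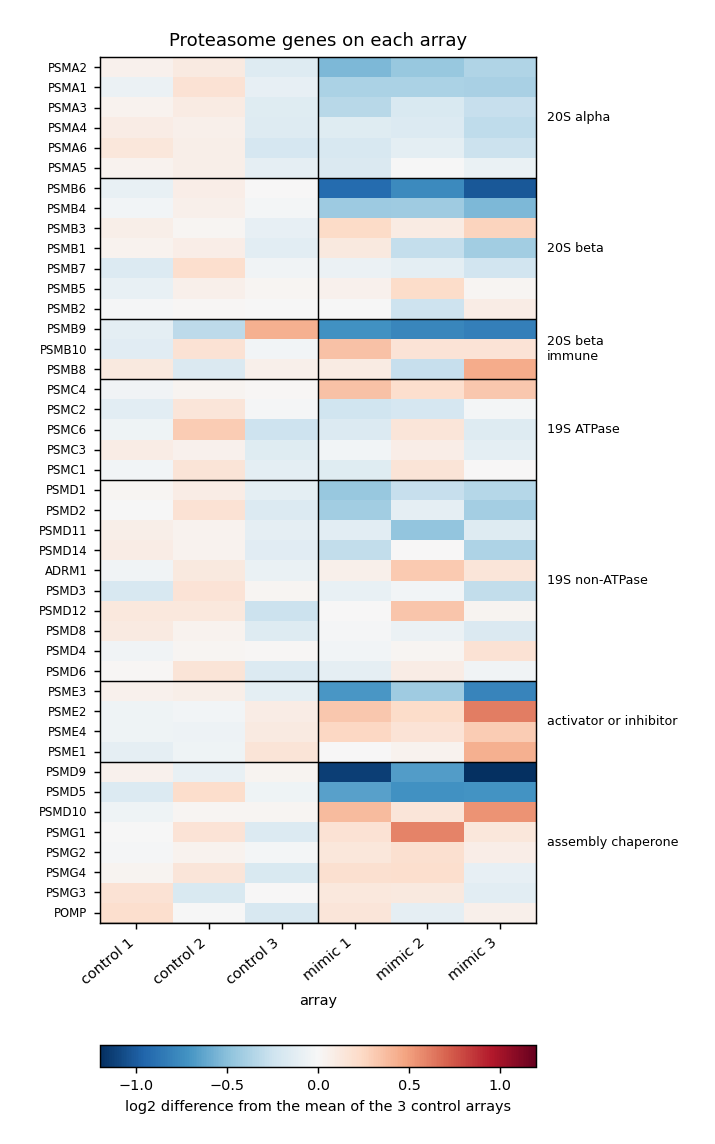
Log2 difference of each gene (rows, by role) on each array (columns) from the mean of the 3 control arrays, on a colour scale from -1.2 (blue) to 1.2 (red). PSMB6, PSMB9, PSME3, PSMD9 and PSMD5 are blue on all 3 mimic arrays, and PSMC4, PSME2 and PSMD10 are red on all 3.

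Of the 3 immunoproteasome subunits measured, 1 was called lower, PSMB9, against 13.7% of all genes tested. PSMB9, which replaces PSMB6, was dim: each of the 3 control arrays detected it and none of the mimic arrays did. It read 5.795, 5.599 and 6.339 in controls and 5.19, 5.13 and 5.09 with the mimic, where it was not well above background. A floor was set on each mimic array at the lowest detected signal or the PSMB9 signal, whichever was higher. The PSMB9 control mean, 5.91, lay 1.33-fold above the mean floor of 5.495. The limma adjusted p of the fitted difference was 0.0217. Since the control arrays alone took PSMB9 past the filter, neither the 1.33-fold ratio nor this p supports a change. The fitted difference, -0.78, was -0.29 with no background correction. The call ended without mimic replicate 1 (limma adjusted p = 0.0528) or 3 (0.0603) and with no filter on dim probes (0.0501), and no value was had without any 1 control array. A second PSMB9 probe was detected on no array.

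PSMB10, which replaces PSMB7, read 11.01, 11.32 and 11.11 in controls and 11.50, 11.31 and 11.31 with the mimic. These overlap, and the difference was 0.23 (95% interval -0.08 to 0.54; limma adjusted p = 0.260). PSMB8, which replaces PSMB5, read 9.48, 9.20 and 9.43 in controls and 9.47, 9.09 and 9.82 with the mimic. Mimic arrays held both the highest and the lowest value, and the difference was 0.09 (-0.36 to 0.53; limma adjusted p = 0.780). Other PSMB8 probes gave 0.07 and 0.02, and the dimmest, detected on 5 arrays, gave 0.70 (adjusted p over probes = 0.0194), so the probes of PSMB8 disagree. Of 8 measured interferon response genes, IFIT1 fell by 1.13 and HLA-B rose by 0.50. IFIT3 was also called lower, but only the control arrays detected it, so it passed the filter through the group where it was high. IRF1, B2M, OAS1, ISG15 and HLA-C lay between -0.43 and 0.13 and were not called. Of all genes tested, 13.7% were called lower and 12.7% higher.

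In the 19S cap, none of 15 measured genes was called in either direction, against 26.4% of all genes tested. At an unadjusted limma p under 0.05, 1 was lower and 1 higher, against 39.9% of all genes in either direction. Under limma's trend and robust options, 2 were called lower and 1 higher, against 16.2% and 16.1% of all genes. The ATPases had a median of -0.02 and the non-ATPases of -0.11. The intervals set bounds on what these arrays could miss: the lowest bound in the cap was -0.65 and the highest 0.56.

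PSMC4, a base ATPase, read 10.61, 10.68 and 10.67 in controls and 11.004, 10.857 and 10.973 with the mimic. All mimic arrays lay above the controls, with a difference of 0.29 (95% interval 0.03 to 0.56; limma adjusted p = 0.104). Its other probes gave 0.15 and 0.28. PSMC2 read 11.91, 12.19 and 12.02 in controls and 11.80, 11.84 and 12.02 with the mimic, with a difference of -0.15 (-0.46 to 0.15; limma adjusted p = 0.451) and overlapping arrays. PSMC6, PSMC3 and PSMC1 lay between -0.06 and 0.01.

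PSMD1, the large scaffold of the base, read 10.87, 10.93 and 10.73 in controls and 10.39, 10.56 and 10.51 with the mimic. The groups did not overlap, and the difference was -0.36 (95% interval -0.64 to -0.08; limma adjusted p = 0.0698). It was called lower under 8 of 20 alternatives, with changes of -0.42 to -0.31 over all 20. PSMD2, the other scaffold of the base and a docking site for ubiquitin shuttles, read 11.87, 12.04 and 11.70 in controls and 11.45, 11.76 and 11.46 with the mimic. Mimic array 2 overlapped the controls, and the difference was -0.31 (-0.65 to 0.03; limma adjusted p = 0.174). PSMD14, the deubiquitinase of the lid, changed by -0.22 (-0.55 to 0.11), and the ubiquitin receptors PSMD4 and ADRM1 by 0.05 and 0.17. The lid subunits PSMD11, PSMD3, PSMD8, PSMD6 and PSMD12 lay between -0.25 and 0.12.

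Of the 4 activators measured, 1 was called lower, against 13.7% of all genes tested. PSME3, the activator of the nuclear proteasome (PA28 gamma), read 9.44, 9.46 and 9.26 in controls and 8.69, 8.96 and 8.59 with the mimic. The groups did not overlap. PSME3 fell 1.56-fold, by 0.64 ± 0.14 (SE; limma adjusted p = 0.0134), and its second probe gave -0.66 (adjusted p over probes = 0.0226). The call held with any 1 array left out, at the threshold without mimic replicate 1 (-0.61, limma adjusted p = 0.050 after rounding).

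PSME2, the beta chain of the cytosolic activator PA28, read 11.05, 11.07 and 11.19 in controls and 11.43, 11.32 and 11.72 with the mimic. All mimic arrays were above the controls, with a difference of 0.39 (95% interval 0.06 to 0.71; limma adjusted p = 0.0851). PSME1, its alpha chain, changed by 0.16 (-0.20 to 0.51). A dim PSME1 probe, detected on 3 control arrays and 1 mimic array, gave -0.31 (limma adjusted p over probes = 0.211). PSME4 (PA200) read 11.45, 11.44 and 11.60 in controls and 11.75, 11.66 and 11.80 with the mimic. The groups did not overlap, and the difference was 0.24 (-0.04 to 0.51; limma adjusted p = 0.191). By the brightest probe of each gene, the intervals of PSME3 and of each of the other 3 activators did not overlap, but their difference was not tested.

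Of the 8 assembly chaperones measured, 2 were called lower, PSMD9 and PSMD5, against 13.7% of all genes tested. PSMD9 (p27), which helps place ATPases in the base, read 7.81, 7.67 and 7.80 in controls and 6.63, 7.09 and 6.51 with the mimic. Mimic array 2 was the highest of the mimic arrays and still below the controls. PSMD9 fell 2.02-fold, by 1.02 ± 0.17 (SE; limma adjusted p = 0.00425), and 4.54% of genes tested changed as far down or further. PSMD5, another chaperone of the base, read 6.86, 7.24 and 6.97 in controls and 6.37, 6.30 and 6.31 with the mimic. PSMD5 fell by 0.70 ± 0.14 (SE; limma adjusted p = 0.00824). Both probes were dim, and leaving out background correction gave -0.58 for PSMD9 and -0.33 for PSMD5, both called.

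PSMD10 (gankyrin), also a chaperone of the base, was not called. It read 9.98, 10.06 and 10.05 in controls and 10.41, 10.18 and 10.57 with the mimic, all mimic arrays above the controls, with a difference of 0.36 (95% interval 0.04 to 0.67; limma adjusted p = 0.0979). Without mimic replicate 2 it was called (0.46, limma adjusted p = 0.0393). Dimmer PSMD10 probes gave 0.12 and 0.24. PSMG1, a chaperone of alpha rings, read 9.35, 9.52 and 9.19 in controls and 9.52, 9.95 and 9.49 with the mimic. These arrays overlapped, with a difference of 0.30 (-0.08 to 0.68, limma adjusted p = 0.231). A dimmer PSMG1 probe gave 0.36 (limma adjusted p over probes = 0.0681), with all mimic arrays above the controls. PSMG2, PSMG3 and PSMG4, also chaperones of the core, and POMP, which guides beta ring assembly, lay between 0.03 and 0.13.

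**Figure D3:**
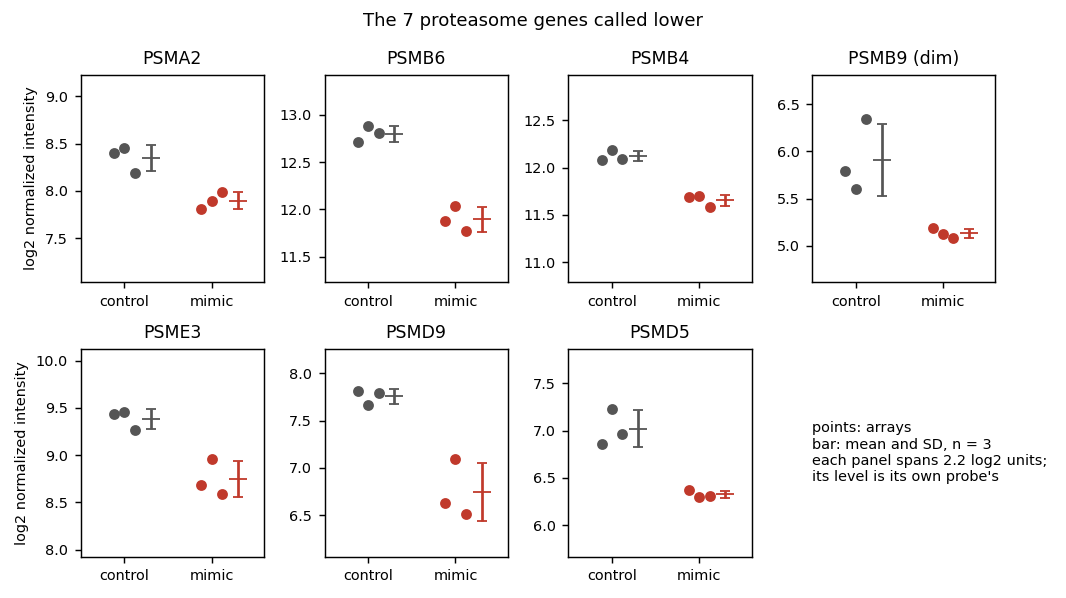
Log2 normalized intensity (y axis) of the 7 genes called lower, on the 3 control and the 3 mimic arrays, with mean and SD (n = 3); each panel has its own range. In every panel all mimic points lie below all control points, and PSMB9 was not detected on the mimic arrays.

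Genes that work with the proteasome were called in both directions, in numbers near the background. The list was chosen with earlier results of these data known. Of 42 measured genes in a list of such partners, 7 fell (background 13.7%) and 6 rose (12.7%), with a median of 0.03. Leaving out control replicate 1, control replicate 3 or mimic replicate 1 gave 3 rises, against 7.74% to 9.09% of all genes.

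Of the 12 proteins that bind the proteasome, 2 fell and 2 rose, against 13.7% and 12.7% of all genes tested. UBE3C, a ubiquitin ligase that extends chains on substrates held at the proteasome, read 10.17, 10.06 and 10.05 in controls and 8.09, 8.35 and 7.93 with the mimic. UBE3C fell 3.91-fold, by 1.97 ± 0.14 (SE; limma adjusted p = 1.5e-04), and a dimmer probe gave -2.02. PITHD1, which has the PITH domain also found in the proteasome-bound thioredoxin TXNL1, fell by 0.94 ± 0.14 (limma adjusted p = 0.00241). PAAF1, known to bind the 19S ATPases and to hold back their joining to the core, read 8.29, 8.52 and 8.37 in controls and 9.27, 9.56 and 9.39 with the mimic. PAAF1 rose 2.02-fold (1.01 ± 0.13; limma adjusted p = 0.00143), and ZFAND2A, a stress-induced protein that binds the 19S cap, rose by 0.92 ± 0.12 (limma adjusted p = 0.00169). UCHL5, ECPAS, UBE3A, ZFAND5, SEM1, ZFAND2B, TXNL1 and UBLCP1 lay between -0.13 and 0.27 and did not pass.

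VCP is the ATPase that extracts ubiquitinated proteins and hands them to the proteasome. VCP itself changed by -0.16 and did not pass. Of its 7 listed cofactors 3 fell, against 13.7% of all genes tested. The list was chosen with earlier results of these data known, so this count is a description only. NSFL1C (p47) read 9.27, 9.30 and 9.40 in controls and 7.28, 7.40 and 7.43 with the mimic. NSFL1C fell 3.87-fold, by 1.95 ± 0.12 (SE; limma adjusted p = 8.3e-05). FAF1 fell by 0.99 ± 0.14 (limma adjusted p = 0.00205; -0.98 by a dimmer probe), and NPLOC4, which pairs with UFD1 to bind ubiquitin chains, fell by 0.89 ± 0.12 (limma adjusted p = 0.00166). UFD1 changed by -0.23, and UBXN1, UBXN6 and FAF2 by 0.19, 0.18 and 0.17.

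Among ubiquitin shuttles, UBQLN4 fell by 0.54 ± 0.15 (SE; limma adjusted p = 0.0312) and UBQLN1 rose by 0.47 ± 0.12 (0.0233). UBQLN1's other probes gave 0.27 and 0.16, neither called, and both genes lost their calls when control replicate 1 or 3 or mimic replicate 1 or 3 was left out. UBQLN4 also lost its call with the replicate block (limma adjusted p = 0.0655). UBQLN2, RAD23B and SQSTM1 changed by -0.31, -0.26 and 0.01.

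NFE2L1, which drives subunit genes through AREs, changed by 0.20 (95% interval -0.08 to 0.49) and NFE2L2 by 0.04, neither called. NGLY1, the deglycosylase that NFE2L1 needs for its activity, rose by 0.38 ± 0.11 (SE; limma adjusted p = 0.0413), and MAFF, a small MAF partner of these factors, rose by 0.71 ± 0.22 (limma adjusted p = 0.0485), with overlapping arrays. The call of NGLY1 ended without any 1 array, and that of MAFF without any 1 array other than control replicate 2 or mimic replicate 3. Both calls ended with the replicate block (limma adjusted p = 0.0674 for NGLY1 and 0.0574 for MAFF).

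TAP1, a chain of the transporter that carries proteasome-made peptides into the endoplasmic reticulum, read 9.46, 9.17 and 9.54 in controls and 10.75, 10.24 and 10.89 with the mimic. TAP1 rose 2.36-fold, by 1.24 ± 0.19 (SE; limma adjusted p = 0.00308). In the RefSeq gene table TAP1 lies between PSMB8 and PSMB9 on chromosome 6, with no protein-coding gene between it and either. TAP2, the other chain, changed by -0.23 and did not pass. NRDC, a peptidase, fell by 0.49 ± 0.13 (limma adjusted p = 0.0308), a call lost when any array but mimic replicate 2 was left out. None of the 3 measured ubiquitin and E1 genes was called (limma; UBA6 0.34, UBB 0.19, UBA1 0.02).

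**Figure D4:**
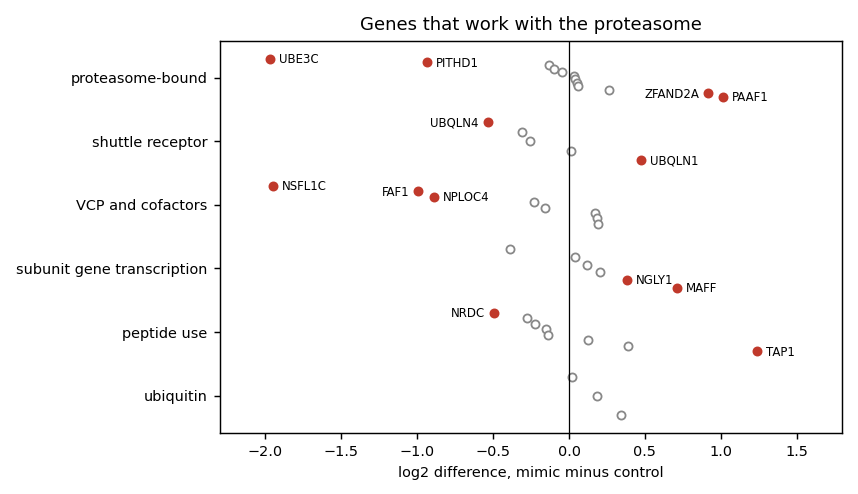
Log2 difference between mimic and control (x axis) for 42 measured partner genes, by group. Filled red points are the 13 called genes and open points the rest; UBE3C and NSFL1C lie near -2 and TAP1 at 1.24.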

How the data were processed

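Total RNA of U2OS cells was labelled with biotin and hybridised to Illumina bead arrays, per the labels' protocols. The authors deposited non-normalized signal intensity for each of 47323 probes on 6 arrays, with a column of detection p-values beside each array's intensities (per the file headers). A second deposited table holds log2 values with nearly equal medians (7.138 to 7.139) that correlate with log2 of the same arrays' intensities at r above 0.9999; it served as an alternative. No source used here gives the scanner software or any earlier background subtraction.

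Background was removed by limma's nec function (R 4.3.3, limma 3.58.1; offset 16, negative-control mean and SD inferred from detection p-values). Quantile normalization and log2 followed. Probes with detection p under 0.05 on at least 3 of 6 arrays were kept, and each gene was represented by its brightest such probe, by mean; 14 members had more than 1 such probe. Genes were named through GEO's annotation of the array. This left 14775 rows, 10734 of them genes. The test was limma's moderated linear model (lmFit, eBayes) on the 2 groups alone. The fit was tested on simulated data. Members and lists were chosen with earlier results of these data known; the rule gave array values for every called member, PSMB6, PSME3 and the 2 uncalled members of smallest adjusted p in each role group, and named every called partner gene. The alternatives were background, normalization, filter, probe rule, variance model, array weights, threshold, replicate block, each array left out, and the deposited values. The number of arrays limits the precision.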

Additional observations from a re-analysis of the deposited data

How the results depend on the processing

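The 20 alternatives turned no called change round. The 7 falls among proteasome genes became 3 at an adjusted p under 0.01 (PSMB6, PSMD5 and PSMD9), 2 with limma's treat against a 1.2-fold change (PSMB6 and PSMD9), and 4 to 6 when 1 array was left out. PSMB6, PSMD5, PSMD9 and PSME3 kept their calls whichever array was left out (PSME3 at a limma adjusted p of up to 0.050 after rounding). The other settings gave 5 to 10. Of all genes, 7.68% fell at an adjusted p under 0.01, 7.37% with treat and 9.6% to 14.6% with 1 array left out. In the other settings 5.91% to 18.2% of all genes fell. Rises, none as reported, numbered 3 with no background correction, the deposited log2 values, trend and robust options or array weights, 2 with normexp at an offset of 50, and 0 to 1 with 1 array left out. Of all genes, 16.1% to 17.6% rose in the settings with 3 member rises. The share was 15.2% with normexp and 7.74% to 12.8% with 1 array left out. The median of the members stayed between -0.12 and -0.04. Among partner genes, rises numbered 3 at an adjusted p under 0.01, 3 with treat and 3 to 6 with 1 array left out, and falls 5 to 7. Over all genes 2832 changed, 1430 at an adjusted p under 0.01, 1346 with treat and 1859 to 2865 with 1 array left out (1859 without control replicate 1, 1871 without mimic replicate 1). Whether the replicate numbers pair the arrays was left undetermined, since 3 arrays in each group cannot settle it. Deviations of same-numbered arrays correlated at 0.02, 0.08 and 0.10, and those of differently numbered arrays at -0.13 to 0.05. The rule set for using pairs was over 0.1 for every pair, so the main fit used none. With the replicate block, 6 members fell (without PSMA2) and 4 partner genes rose, where 13% of all genes fell and 11.8% rose. Dim genes (PSMB9, PSMD5, PSMD9) changed less without background correction, where PSMB6 (-0.88) was further down than PSMD9 (-0.58). Groups of 3 arrays were not tested for outlying arrays. PSMB9 has no value with a control array left out, since it then passed no filter.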
